A study of Homo sapiens with 18 samples.

Results

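A total of 112 genes responded to the SHP2 inhibitor RMC-4550 in SKNO-1 differently from both FLT3-ITD lines, and in the same direction against each. They were found among 12811 genes with at least 1 CPM (reads divided by the scaled library size) in at least 3 libraries of each line, out of 40184 deposited genes. The response of a line was its mean log2 level with RMC-4550 minus that with the solvent DMSO. The SKNO-1 response minus the Molm-14 response, and the SKNO-1 response minus the MV4-11 response, were each tested with limma, and a gene was called at a Benjamini-Hochberg adjusted p under 0.05. In 44 genes both differences were positive, and in 68 both were negative. All 3 are human acute myeloid leukaemia lines. Cultures received DMSO (untreated) or RMC-4550 at 500 nM (treated), and RNA was taken after 24 h from 3 replicate cultures in each of 6 groups. Molm-14 and MV4-11 are labelled FLT3-ITD, an internal tandem duplication that activates the receptor FLT3, and SKNO-1 is labelled KIT N822K, a mutation in the receptor KIT. GM-CSF was in the SKNO-1 medium alone, at 10 ng/mL. SKNO-1 was the 1 line with the KIT mutation, so line, genotype and growth factor cannot be told apart.

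SHP2, the phosphatase encoded by PTPN11, passes signals from receptors such as FLT3 and KIT through adaptor proteins to RAS and from there to RAF, MEK and ERK. ERK activity sustains transcription of cyclin D and of growth genes, and cyclin D kinases release E2F factors from RB so that genes of DNA replication are transcribed. RMC-4550 is an allosteric inhibitor that holds SHP2 in its closed form. GM-CSF acts through a receptor of its own, which signals through JAK2 and STAT5 and also reaches RAS.

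Between 17434810 and 19959917 reads per library were recovered from the deposited values. The share of reads in mitochondrial genes was above 10% in 4 libraries, none of them from SKNO-1: treated Molm-14 replicate 2 (14.99%), untreated MV4-11 replicates 1 and 3 (12.6% and 14.6%) and treated MV4-11 replicate 1 (10.5%). The other 14 libraries lay between 5.06% and 7.004%. The median SD between replicates on the log2 scale was 0.0777 untreated and 0.105 treated in SKNO-1, 0.0672 and 0.255 in Molm-14, and 0.243 and 0.185 in MV4-11. RUNX1T1, the partner in the RUNX1::RUNX1T1 fusion for which SKNO-1 is known, averaged 13.8 ± 0.607 CPM in untreated SKNO-1 (SD, n = 3) and had at most 1 read in any library of the other lines, and gene levels do not show the fusion itself. CD34, a progenitor marker, had 0 to 4 reads in every library. The homeobox gene HOXA9 averaged 53.7 ± 1.2000 CPM in untreated SKNO-1, 137.1 ± 3.71 in Molm-14 and 92.5 ± 1.75 in MV4-11. POU4F1, known for high levels in leukaemias with that fusion, averaged 0.774 ± 0.198 CPM in untreated SKNO-1 and 13.2 ± 0.518 in Molm-14. MEIS1, a homeobox partner of HOXA9, averaged 118.9 ± 1.15 CPM in untreated SKNO-1, 90.7 ± 2.36 in Molm-14 and 125 ± 8.77 in MV4-11. RUNX1T1 thus goes with the label and the low POU4F1 does not. CD34 was nearly absent, HOXA9 was present but lower than in the other lines, and MEIS1 lay between them. These genes do not settle the identity of the line, and SKNO-1 means here the libraries labelled so. Markers of T cells summed to at most 0.598 CPM in any library and those of erythroid cells to at most 2.56 CPM. Other lists were higher. NK cell markers summed to 33.8 to 49.3 CPM in SKNO-1, 130.9 to 181.7 in Molm-14 and 83.3 to 104.9 in MV4-11. Over all libraries, epithelial markers summed to 17.3 to 48.6 CPM, stromal markers to 2.46 to 17.7 and megakaryocyte markers to 3.46 to 32.15. Mast cell markers summed to at most 4.31 CPM. The source of these reads was not tested.

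The SKNO-1 response was more positive than the Molm-14 response in 541 genes (4.22% of those tested) and more negative in 881 (6.88%). Against MV4-11 it was more positive in 70 genes (0.546%) and more negative in 171 (1.33%). The 44 genes more positive than in both lines were 0.343% of those tested and the 68 more negative were 0.531%. Both comparisons used the same 6 SKNO-1 libraries, so a call against one line is not independent of a call against the other. These are bulk RNA data, in which fewer cells of a type and less RNA per cell cannot be told apart. A further 12 genes differed from both lines in opposite directions, with the SKNO-1 response between the others, and are not among the 112. Just inside the threshold were METTL21A and PAX5, whose larger adjusted p was 0.0471 and 0.0495 (limma), and just outside were F3 and FLVCR2, at 0.0502 and 0.0504. Without the 4 libraries over 10% mitochondrial reads, which left 1 untreated MV4-11 library that is assumed to vary like the other groups, the counts were 213 more positive and 267 more negative genes, which held 44 of the 44 and 67 of the 68. With the mitochondrial share as a covariate they were 276 and 371, holding 44 and 68. Leaving out untreated MV4-11 replicate 2 gave 68 and 130, and leaving out treated Molm-14 replicate 2 gave 111 more negative genes. The more negative genes were 40 without untreated SKNO-1 replicate 2 and 43 without replicate 3. Over the 18 fits that each left out 1 library, 25 of the 44 and 36 of the 68 were called every time. In the plot of both differences DHRS9 lies farthest to the upper right.

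**Figure D1:**
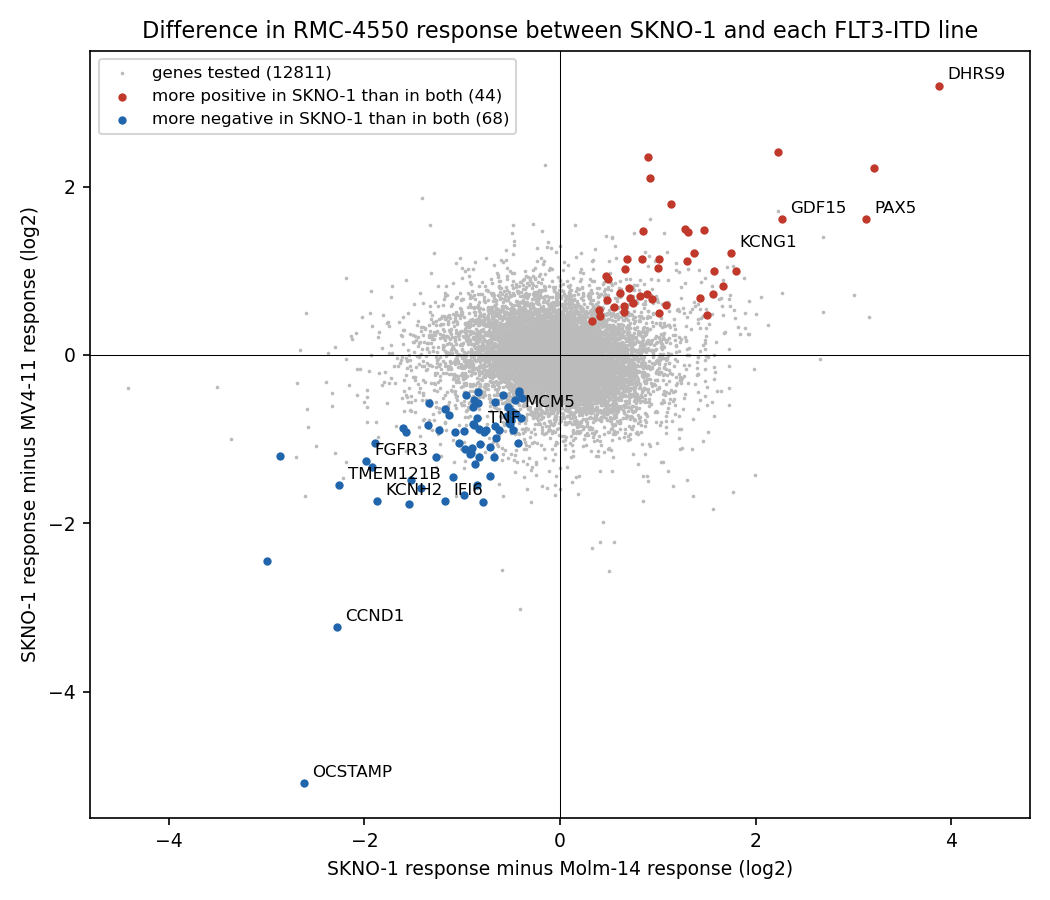
Each point is a gene tested, placed by the SKNO-1 response minus the Molm-14 response (x axis, log2) and minus the MV4-11 response (y axis, log2). The 44 more positive members are red and the 68 more negative members blue; DHRS9 lies at 3.88 and 3.199, and CCND1 and OCSTAMP, at lower left, had 3 reads or fewer in each treated SKNO-1 library.

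Within each line, RMC-4550 was followed by 1423 genes higher (11.1%) and 2387 lower (18.6%) in SKNO-1, 2803 higher (21.9%) and 3432 lower (26.8%) in Molm-14, and 805 higher (6.28%) and 1213 lower (9.47%) in MV4-11. The balance of rises and falls moved with the scaling. Rises were 37.3% of the SKNO-1 calls on the deposited scale, 47.6% after median-ratio scaling and 49.7% after quantile normalization, and in MV4-11 they were 39.9%, 50.4% and 48.1%. These calls sort the members by what each line did, as a description, since they come from the same libraries as the differences. Of the 68 more negative members, 34 fell in SKNO-1 and also fell, by less, in at least 1 other line, and 22 of these fell in all 3 lines. Another 11 fell in SKNO-1 with no call elsewhere, 13 rose in both other lines with no call in SKNO-1, and 8 fell in SKNO-1 but rose in another line. The last 2, GPNMB and IFI6, rose in all 3 lines and, on the log2 scale, least in SKNO-1. Among the 44 more positive members, 13 rose in SKNO-1 with no call elsewhere, 11 rose in SKNO-1 and by less in another line, 10 rose in SKNO-1 and fell in another line, and 9 fell in both other lines with no call in SKNO-1. The remaining gene, CDC42EP3, fell in all 3 lines and least in SKNO-1. The responses of each class are plotted, and CCND1 and OCSTAMP, which were at the floor in treated SKNO-1, lie beyond their class median at their bound as well.

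**Figure D2:**
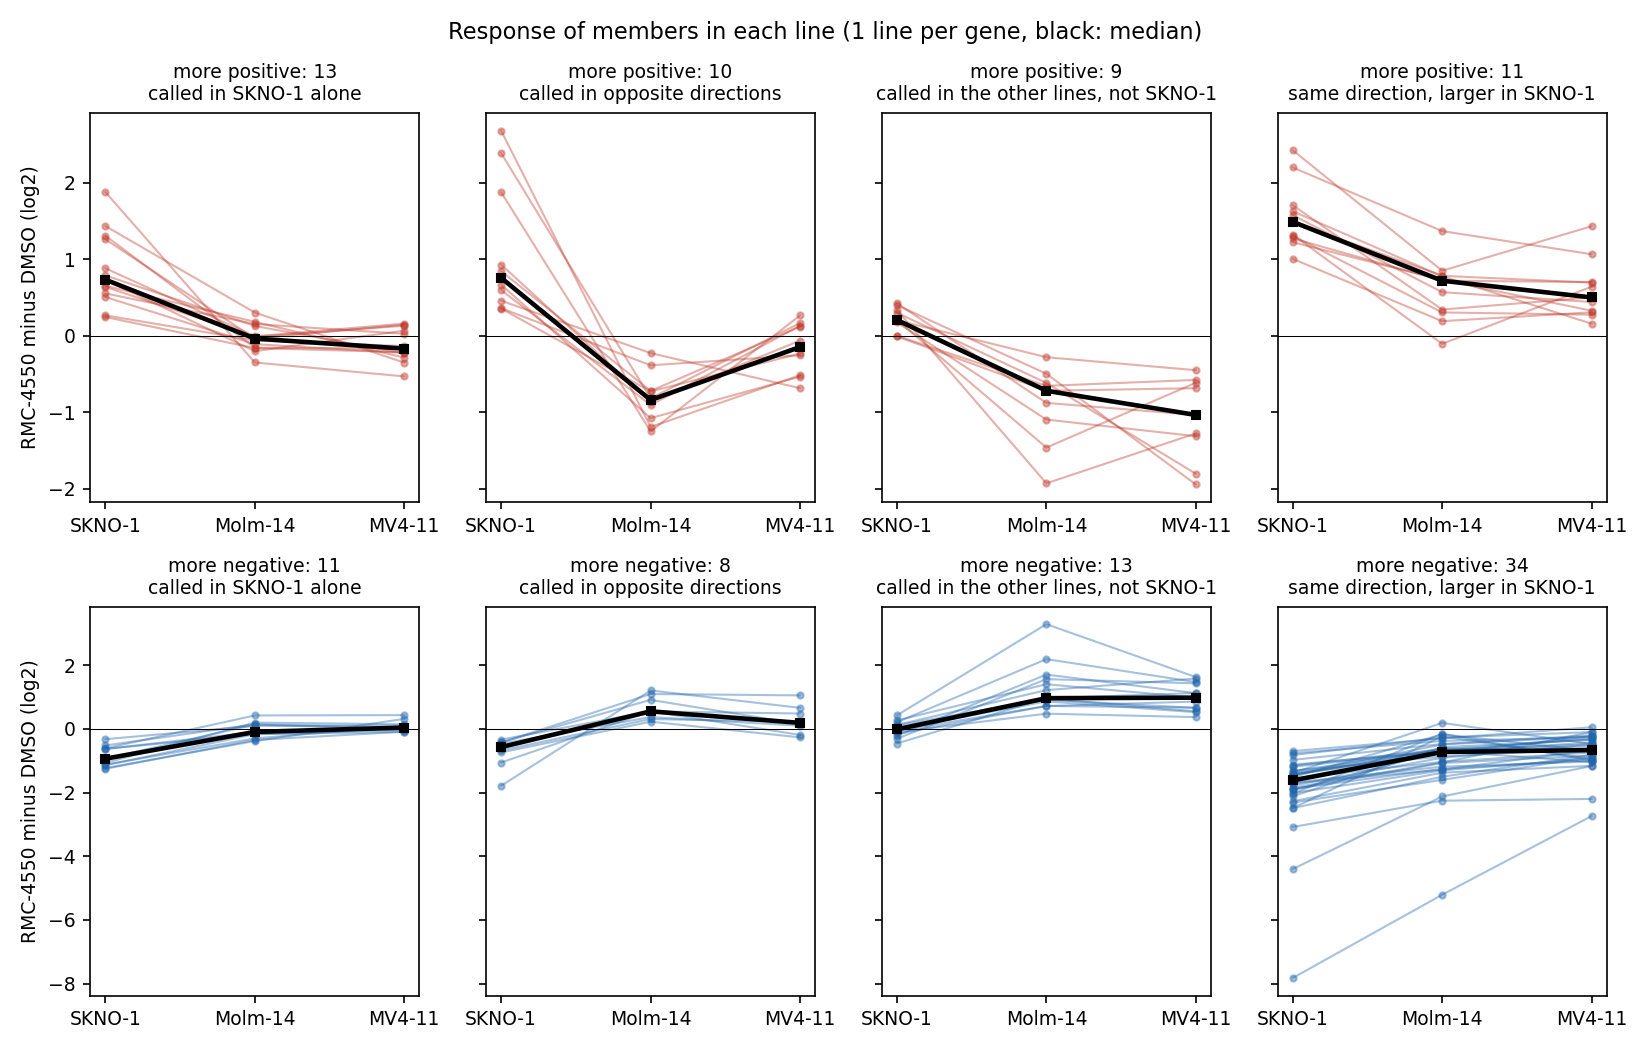
Response to RMC-4550 (log2, RMC-4550 minus DMSO) of the members in SKNO-1, Molm-14 and MV4-11, with 1 coloured line per gene and the median in black; the 3 members in classes of 1 or 2 genes are left out. In the 34 genes that fell further in SKNO-1 the median responses were -1.62, -0.73 and -0.67 in SKNO-1, Molm-14 and MV4-11.

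Genes of DNA replication and repair were among the 34 that fell further in SKNO-1. They were POLA1 (the catalytic subunit of DNA polymerase alpha, which starts new strands), MCM5 (a subunit of the replicative helicase), MCM8, RFC4 (a subunit of the clamp loader), CLSPN and TONSL (which act at stressed forks), HELLS and UHRF1 (which maintain DNA methylation), DTYMK (which makes dTDP), RMI2, DDIAS and TERT. This grouping was made after the values were seen. The upstream 250 bases of 3 of them are printed because they hold a match to the E2F motif, the site of the factors that drive replication genes. They come from RefSeq promoter windows on GRCh38.p14, each ends at the base before the annotated start, and capitals mark the matches. HELLS is at chr10:94545538-94545787, POLA1 at chrX:24693668-24693917 and UHRF1 at chr19:4909251-4909500, all on the plus strand.
HELLS: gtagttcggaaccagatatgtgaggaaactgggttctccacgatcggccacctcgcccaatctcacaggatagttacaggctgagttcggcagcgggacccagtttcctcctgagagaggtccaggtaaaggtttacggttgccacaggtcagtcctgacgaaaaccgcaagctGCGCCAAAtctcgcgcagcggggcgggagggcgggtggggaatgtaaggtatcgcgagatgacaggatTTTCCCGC
POLA1: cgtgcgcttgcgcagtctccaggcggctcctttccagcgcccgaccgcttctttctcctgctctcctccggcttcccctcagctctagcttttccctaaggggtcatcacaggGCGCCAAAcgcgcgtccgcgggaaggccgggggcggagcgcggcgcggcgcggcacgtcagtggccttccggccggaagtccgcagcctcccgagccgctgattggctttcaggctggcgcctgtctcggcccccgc
UHRF1: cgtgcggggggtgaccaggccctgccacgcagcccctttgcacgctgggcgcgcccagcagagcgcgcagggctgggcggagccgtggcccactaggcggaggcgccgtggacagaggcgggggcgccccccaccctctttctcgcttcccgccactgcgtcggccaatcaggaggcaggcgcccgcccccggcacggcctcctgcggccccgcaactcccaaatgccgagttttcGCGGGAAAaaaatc
The letters searched were TTTCCCGC, TTTCGCGC, TTTGCCGC and TTTGGCGC on both strands, in windows of 300 bases that also include the first 50 bases from the start. The search left out a chromosome, and a window elsewhere was found for 83 of the 112 members. Shares of all windows cover the whole promoter set outside that chromosome, not only the genes tested, so they are not shares of expressed genes. Such a match stood in 7 of 27 windows (25.9%) of the genes that fell further in SKNO-1, in 9 of 51 windows (17.6%) of all more negative members, in 2 of 32 windows (6.25%) of the more positive members and in 3.33% of all 27305 windows. The windows of RFC4, DTYMK, DDIAS and TERT held no such match. E2F was 1 of 8 motifs searched after the members were known, and these shares are a description with no test. In the same 27 windows, with the share of all windows in brackets, the CCAAT box stood in 59.3% (35.7%). ETS stood in 29.6% (23.2%), the E-box in 14.8% (7.43%), RUNX in 7.41% (13.1%) and CHR in 3.7% (15.4%). AP-1 stood in 0% (7.76%) and the interferon-stimulated response element in 0% (3.65%).

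POLA1 fell in all lines and furthest in SKNO-1. Its SKNO-1 levels went from 32.2, 30.01 and 29.9 to 10.5, 10.3 and 10.5 CPM. In Molm-14 they went from 35.8, 34.8 and 40.8 to 18.5, 17.7 and 18.04 CPM, and in MV4-11 from 24.3, 31.8 and 25.9 to 16.1, 16.4 and 16.2 CPM. All treated libraries lay below all untreated libraries of their line, and untreated SKNO-1 lay within or close to the range of MV4-11. The responses were -1.55, -1.04 and -0.74 on the log2 scale in SKNO-1, Molm-14 and MV4-11, the order in which responses are given throughout, a difference of -0.52 ± 0.135 from Molm-14 (SE; limma adjusted p = 0.0207) and of -0.81 ± 0.135 from MV4-11 (adjusted p = 0.00351). The call against Molm-14 was lost, at an adjusted p of 0.055 to 0.0638, when any 1 of untreated Molm-14 replicates 1 and 2 and untreated SKNO-1 replicate 1 was left out.

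MCM5 also fell in all 3 lines. Its SKNO-1 levels fell from 190.7, 194.6 and 202.6 to 79.9, 79.01 and 77.01 CPM. It fell from the range of 107.8 to 125.4 to that of 59.6 to 70.3 CPM in Molm-14, and from the range of 123.8 to 142.8 to that of 78.4 to 91.2 CPM in MV4-11. SKNO-1 had the highest MCM5 of the 3 lines before treatment, and after it the SKNO-1 libraries lay above Molm-14 and overlapped MV4-11. The differences were -0.45 ± 0.122 from Molm-14 (limma adjusted p = 0.0273) and -0.699 ± 0.122 from MV4-11 (adjusted p = 0.00511). The first was lost with the replicate number as a block within SKNO-1 (adjusted p = 0.0502) and, at an adjusted p of 0.0537 to 0.0806, when any 1 of untreated Molm-14 replicates 1 and 2, treated Molm-14 replicate 1, untreated SKNO-1 replicates 2 and 3 and treated SKNO-1 replicate 3 was left out. UHRF1 went from 60.99, 58.8 and 57.7 to 18.9, 18.6 and 16.8 CPM in SKNO-1, from the range of 46.3 to 51.3 to that of 19.3 to 20.4 CPM in Molm-14, and from the range of 57.3 to 61.3 to that of 36.02 to 38.7 CPM in MV4-11. It was called against both lines in 18 of 18 fits that left out 1 library, HELLS in 8 of 18 and CLSPN in 5 of 18.

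The DNA replication and E2F list had 34 genes tested. Against Molm-14 its median difference was -0.15, with 4 genes called more negative and none more positive, and against MV4-11 it was -0.84, with 15 called more negative and none more positive. Over all genes tested the medians were -0.02 and -0.06, and 6.88% and 1.33% were called more negative. POLA1, MCM5 and UHRF1 were the 3 called against both, and E2F8, an E2F family repressor, was the other one called against Molm-14, at -1.01 (limma adjusted p = 0.0418) beside -1.12 from MV4-11 (adjusted p = 0.0722). The median response of the list was -1.44 in SKNO-1, -1.32 in Molm-14 and -0.65 in MV4-11. On mitosis, 28 genes were tested and none was called by limma against either line, with medians of -0.098 and -0.45. At an unadjusted p under 0.05 (limma) there were 4 against Molm-14 and 14 against MV4-11, where 25.5% and 13.6% of all genes tested passed the same threshold. All 14 against MV4-11 were negative. KIF18B and WDR62, which act in mitosis but were not on that list, were more negative members that fell in all 3 lines. They were called against both lines in 9 and 16 of 18 fits that left out 1 library.

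Of 11 tested D cyclins, cyclin D kinases and their inhibitors, 4 were called more negative against Molm-14 and 2 against MV4-11. Over all genes tested these shares were 6.88% and 1.33%. CDKN2C and CCND1 were members. CDKN2C encodes an INK4 inhibitor of the cyclin D kinases. It fell in SKNO-1 from 47.6, 48.4 and 47.1 to 33.4, 35.4 and 34.5 CPM, and rose in Molm-14 from 138.8, 135.98 and 143.7 to 187.1, 166.3 and 188.1 CPM. In MV4-11 it measured 79.5 to 87.1 CPM untreated and 86.1 to 89.8 CPM treated. The untreated and treated libraries overlapped in MV4-11 alone, and SKNO-1 had the lowest levels in both conditions. The differences were -0.84 ± 0.0955 (limma adjusted p = 4.89e-05) and -0.57 ± 0.0955 (adjusted p = 0.00378).

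CCND1, cyclin D1 and an ERK-dependent gene, was low in SKNO-1 before treatment, at 1.1995, 1.65 and 1.18 CPM, and had 0 to 3 reads per library after it. That is at least 9.69-fold lower, taking 3 reads in each treated library as the floor. Molm-14 went from 15.7, 17.9 and 18.2 to 4.92, 3.203 and 3.85 CPM and MV4-11 from 10.9, 18.4 and 11.1 to 4.7004, 6.38 and 6.496 CPM, the latter not called (limma adjusted p = 0.111). All treated libraries lay below the untreated ones of their line. The fitted differences, -2.28 ± 0.661 (adjusted p = 0.0368) and -3.24 ± 0.661 (adjusted p = 0.0149), depend on the 0.5 reads that the deposited scale adds, and on log2(CPM + 1) they were 0.74 and -0.09, with neither called. The ratio of mean CPM, untreated over treated, was 4.33 in Molm-14 and 2.296 in MV4-11, both under the bound for SKNO-1, a comparison of means with no test. The call against Molm-14 was also lost with 0.1 CPM added, with only the samples of the lines compared, under the replicate block, and when any 1 of untreated Molm-14 replicates 1, 2 and 3, treated Molm-14 replicates 1 and 3, untreated SKNO-1 replicates 1, 2 and 3 and treated SKNO-1 replicate 3 was left out. That against MV4-11 was lost with only the samples of the lines compared and without untreated MV4-11 replicate 1 or untreated SKNO-1 replicate 2 (adjusted p of 0.0508 to 0.0512).

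TNF, an inflammatory cytokine, fell steeply in all lines. It went from 16.8, 16.8 and 15.6 to 1.57, 2.27 and 1.98 CPM in SKNO-1, from 84.6, 81.7 and 84.6 to 16.8, 19.3 and 16.4 CPM in Molm-14, and from 92.1, 79.4 and 88.2 to 19.5, 18.5 and 18.4 CPM in MV4-11. The treated levels of the other lines were thus close to the untreated level of SKNO-1. The differences were -0.83 ± 0.161 (limma adjusted p = 0.00342) and -0.88 ± 0.161 (adjusted p = 0.00699). On log2(CPM + 1), which shrinks changes of low levels, neither was called, at -0.38 and -0.43. TNF was the only member among 14 tested genes of NF-kB and inflammatory cytokines, and more negative members were 0.531% of all genes tested. Of the 14, 2 were called more negative against Molm-14 and 1 against MV4-11, with none more positive. Over all genes tested, 6.88% and 1.33% were called more negative. The list medians were -0.14 and -0.22.

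SLC7A5, a transporter that imports leucine, went from 210.01, 218.9 and 220.5 to 101.4, 117.9 and 111.5 CPM in SKNO-1. Its responses were -0.98, -0.48 and -0.203 in SKNO-1, Molm-14 and MV4-11, the last of which was not called (limma adjusted p = 0.228). Its difference from Molm-14, -0.5004 ± 0.148 (adjusted p = 0.0403), was lost under the replicate block, also within SKNO-1 alone (adjusted p = 0.0594), without an intensity trend, and when any 1 of untreated Molm-14 replicates 1, 2 and 3, treated Molm-14 replicates 1 and 3, untreated SKNO-1 replicates 1, 2 and 3 and treated SKNO-1 replicates 1 and 3 was left out. TERT, the catalytic subunit of telomerase, went from 8.397, 9.09 and 7.44 to 1.203, 2.23 and 1.15 CPM in SKNO-1, from the range of 14.9 to 18.3 to that of 5.09 to 6.53 CPM in Molm-14 and from the range of 9.72 to 11.2 to that of 5.57 to 6.24 CPM in MV4-11. TERT was chosen after its values were seen and was called against both lines in 9 of 18 fits without 1 library. OCSTAMP, which takes part in osteoclast fusion, was also chosen after its values were seen. It had 9.596, 10.97 and 12.2 CPM in untreated SKNO-1 and 0 or 1 read when treated, at least 78.8-fold lower, and in Molm-14 it had 2 or 3 reads when treated, at least 34.4-fold lower. Both folds are lower bounds, so their difference is not a measured size.

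The membrane protein genes TMEM121B, STX1A and LDLRAD3 fell further in SKNO-1. TMEM121B went from 31.7, 33.6 and 34.04 to 4.77, 6.77 and 6.25 CPM in SKNO-1 and from 29.7, 28.03 and 29.7 to 13.3, 14.5 and 17.97 CPM in MV4-11. In Molm-14 it measured 12.4 to 13.3 CPM untreated and 8.33 to 13.3 CPM treated. Untreated SKNO-1 lay just above untreated MV4-11, and treated SKNO-1 was below every other library. The differences were -2.26 ± 0.228 (limma adjusted p = 1.66e-05) and -1.55 ± 0.228 (adjusted p = 0.00152). STX1A, a SNARE protein of vesicle fusion, went from 17.4, 18.1 and 18.1 to 4.395, 4.13 and 4.46 CPM in SKNO-1, with responses of -2.04, -0.16 and -0.999, of which that in Molm-14 was not called (adjusted p = 0.327). LDLRAD3, which has a domain of the LDL receptor, went from 3.88, 3.901 and 4.43 to 0.925, 0.789 and 1.06 CPM in SKNO-1, with responses of -2.12, -0.58 and -0.34, of which that in MV4-11 was not called (adjusted p = 0.112). IGFBP4, a secreted protein that binds insulin-like growth factors, was among the 11 called in SKNO-1 alone. It fell from 81.4, 82.5 and 81.6 to 36.5, 43.01 and 37.8 CPM there. In Molm-14 it measured 5.79 to 6.69 CPM untreated and 6.34 to 7.64 CPM treated, and in MV4-11 38.5 to 48.6 CPM untreated and 42.7 to 52.9 CPM treated, so the groups overlapped in both. The differences were -1.27 ± 0.158 (adjusted p = 0.000107) and -1.21 ± 0.158 (adjusted p = 0.000666). The calls of these 4 genes against both lines held in every alternative fit, except that LDLRAD3 was not tested where a mean of 5 CPM in each line was required.

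In 13 more negative members Molm-14 and MV4-11 rose and SKNO-1 had no call. The median responses of these genes were -0.01, 0.96 and 0.98 in SKNO-1, Molm-14 and MV4-11. FGFR3, a receptor tyrosine kinase, rose from 8.22, 8.88 and 9.86 to 45.2, 36.8 and 41.4 CPM in Molm-14 and from 9.85, 9.87 and 8.32 to 25.1, 24.9 and 27.7 CPM in MV4-11. In SKNO-1 it went from 2.08, 1.97 and 1.79 to 2.13, 2.41 and 2.21 CPM. The SKNO-1 libraries did not overlap either, but the difference of 0.21 was not called (limma adjusted p = 0.196). The SKNO-1 response differed by -1.98 ± 0.162 (adjusted p = 3e-06) and -1.26 ± 0.162 (adjusted p = 0.000637). KCNH2, a voltage-gated potassium channel, rose from 20.2, 20.2 and 23.7 to 67.9, 52.97 and 69.2 CPM in Molm-14 and from 6.24, 8.75 and 6.34 to 16.1, 19.3 and 21.9 CPM in MV4-11. In SKNO-1 it measured 2.91 to 3.67 CPM untreated and 2.44 to 3.15 CPM treated, an overlap. The long noncoding RNA LINC00649 had responses of -0.21, 1.71 and 1.12. The calls of these 3 genes held in every alternative fit that tested them, which the one requiring a mean of 5 CPM in each line did not.

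Lysosomal genes had 2 more negative members among 27 tested, beside 0.531% of all genes tested. CTSB, the protease cathepsin B, measured 318.3 to 341.3 CPM untreated and 319.7 to 329.8 CPM treated in SKNO-1. In Molm-14 it rose from 229.7, 240.7 and 246.3 to 459.02, 397.97 and 448.3 CPM and in MV4-11 from 235.9, 270.6 and 240.995 to 346.2, 352.5 and 373.3 CPM. Untreated SKNO-1 was thus above the untreated libraries of the other lines, and treated SKNO-1 was below their treated libraries. GPNMB, a glycoprotein of lysosomes and the cell surface, rose in all 3 lines, with responses of 0.66, 1.84 and 1.31. Its difference from MV4-11, -0.65 ± 0.155 (limma adjusted p = 0.0423), was lost in 19 alternatives, 14 of which left out 1 library and 1 of which was the replicate block within SKNO-1 (adjusted p = 0.0641). It held without untreated MV4-11 replicate 2, untreated Molm-14 replicate 1 or treated Molm-14 replicates 1 or 2. Over the lysosome list the median differences were 0.02 and -0.15. Of its 27 tested genes, 6 were called more negative against Molm-14 and 2 against MV4-11, and none more positive against either. Over all genes tested, 6.88% and 1.33% were called more negative.

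SCARB1, the receptor for high-density lipoprotein, fell in SKNO-1 and rose in both other lines. It went from 116.1, 115.4 and 116.1 to 84.9, 96.9 and 93.7 CPM in SKNO-1, from 241.1, 255.4 and 260.7 to 375.01, 401.2 and 333.7 CPM in Molm-14, and from 220.7, 223.7 and 206.6 to 298.6, 300.7 and 309.7 CPM in MV4-11, with responses of -0.34, 0.55 and 0.48. No untreated library overlapped the treated libraries of its line. The differences were -0.89 ± 0.108 (limma adjusted p = 8.82e-05) and -0.82 ± 0.108 (adjusted p = 0.000733), and the calls against both lines held in every alternative fit. SLC2A5, the fructose transporter, fell in SKNO-1 from 296.5, 326.4 and 329.7 to 222.8, 242.1 and 243.9 CPM, rose in Molm-14 from 100.96, 99.997 and 107.7 to 198.3, 199.3 and 182.6 CPM and overlapped in MV4-11; it was chosen after its values were seen.

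IFI6 was the only member among 32 tested interferon-induced genes, beside 0.531% of all genes tested that were more negative members. It encodes a small antiviral protein, and its upstream 250 bases are printed with those of DDX60L, a helicase-like member that was more positive in SKNO-1, because both hold the interferon-stimulated response element. Capitals mark GAAANNGAAA or its reverse complement. IFI6 is at chr1:27672193-27672442 and DDX60L at chr4:168480493-168480742, both on the minus strand of GRCh38.p14, from RefSeq.
IFI6: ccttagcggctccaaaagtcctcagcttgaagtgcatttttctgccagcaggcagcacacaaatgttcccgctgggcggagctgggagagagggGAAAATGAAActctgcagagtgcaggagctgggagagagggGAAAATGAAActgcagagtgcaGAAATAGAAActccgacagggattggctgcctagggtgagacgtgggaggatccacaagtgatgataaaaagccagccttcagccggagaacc
DDX60L: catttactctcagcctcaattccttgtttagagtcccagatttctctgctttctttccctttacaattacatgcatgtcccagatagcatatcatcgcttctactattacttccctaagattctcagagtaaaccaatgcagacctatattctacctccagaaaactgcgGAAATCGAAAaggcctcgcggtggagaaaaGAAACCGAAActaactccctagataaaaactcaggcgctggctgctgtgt
IFI6 had 3 matches and DDX60L had 2, and 3.65% of all windows had at least 1. So did 1 of 51 windows (1.96%) of the more negative members and 3 of 32 (9.38%) of the more positive members. IFI6 went from 18.8, 19.9 and 21.9 to 44.1, 44.9 and 43.2 CPM in SKNO-1, from 2.83, 2.19 and 2.23 to 10.7, 17.3 and 9.22 CPM in Molm-14, and from 8.23, 6.905 and 8.62 to 64.9, 53.6 and 54.7 CPM in MV4-11. SKNO-1 had the highest untreated level and, on the log2 scale, the smallest rise. The differences were -1.18 ± 0.256 (limma adjusted p = 0.00743) and -1.74 ± 0.256 (adjusted p = 0.00152). After quantile normalization the first was -0.84 and not called (adjusted p = 0.0782). DDX60L, named after its values were seen, rose from 20.8, 20.5 and 18.6 to 54.1, 47.6 and 48.2 CPM in SKNO-1 and from the range of 56.9 to 60.7 to that of 82.3 to 99.7 CPM in MV4-11, and in Molm-14 it measured 108.6 to 112.5 CPM untreated and 95.6 to 114.5 CPM treated. The interferon list lay between the lines. Its median difference was 0.49 from Molm-14, with 6 genes called more positive and 2 more negative, and -0.99 from MV4-11, with 17 called more negative and none more positive. Of all genes tested, 4.22% were more positive and 6.88% more negative against Molm-14, and 0.546% and 1.33% against MV4-11. IFIT1, an antiviral RNA-binding protein, had responses of 3.31, 2.02 and 4.796, and with CMPK2, EIF2AK2, MX2, PARP9 and SAMD9L it was among the 12 genes that differed from both lines in opposite directions.

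DHRS9, KCNG1 and PAX5 were among the 10 members that rose in SKNO-1 and fell in another line. DHRS9, a dehydrogenase of retinol and steroids, rose from 0.692, 0.459 and 1.37 to 5.09, 5.34 and 4.597 CPM in SKNO-1 and fell from 47.7, 40.4 and 46.1 to 20.1, 16.7 and 22.1 CPM in Molm-14. In MV4-11 it went from 23.9, 29.97 and 22.5 to 17.3, 17.9 and 17.8 CPM, a response of -0.52 that was not called (limma adjusted p = 0.211). Treated SKNO-1 was still below every library of the other lines. The differences were 3.88 ± 0.364 (adjusted p = 8.52e-06) and 3.199 ± 0.364 (adjusted p = 0.000243). KCNG1, a modifying subunit of voltage-gated potassium channels, was the only member called higher in SKNO-1 and lower in both other lines. It went from 1.52, 1.61 and 1.601 to 2.59, 2.74 and 2.25 CPM in SKNO-1, from 20.6, 22.5 and 23.5 to 11.2, 10.2 and 10.1 CPM in Molm-14 and from 15.5, 13.8 and 12.4 to 7.97, 10.6 and 10.3 CPM in MV4-11. Its differences were 1.75 ± 0.1797 (adjusted p = 1.94e-05) and 1.204 ± 0.1797 (adjusted p = 0.00167). The calls of DHRS9 and KCNG1 held in every alternative fit that tested them, and neither passed the minimum of a mean of 5 CPM in each line.

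PAX5, the B-lineage transcription factor, went from 0.369, 0.734 and 0.471 to 2.08, 2.37 and 1.43 CPM in SKNO-1 and from the range of 14.8 to 16.95 to that of 4.93 to 8.75 CPM in Molm-14. In MV4-11 it measured 6.22 to 11.5 CPM untreated and 8.29 to 10.05 CPM treated. Its difference from Molm-14 was 3.13 ± 0.395 (limma adjusted p = 0.000111). Its difference from MV4-11, 1.61 ± 0.395 (adjusted p = 0.0495), was lost in 19 alternatives and was 0.72 on log2(CPM + 1). Of these, 12 left out 1 library, and the call held without untreated MV4-11 replicates 2 or 3, treated Molm-14 replicates 1 or 2, untreated SKNO-1 replicate 2 or treated SKNO-1 replicate 3. PAX5 is itself on the list of B-cell markers. The other 4 markers on it summed to 16.3 to 18.1 CPM in untreated and 15.9 to 19.1 CPM in treated SKNO-1, 1.56 to 2.25 and 1.41 to 3.71 CPM in Molm-14, and 9.67 to 11.8 and 10.7 to 12.9 CPM in MV4-11, ranges that overlapped within each line.

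Of the 13 members that rose in SKNO-1 with no call elsewhere, which does not show that the other lines were unchanged, TRIM72 and CNTN4 were among the 12 most positive. TRIM72, a membrane repair protein of muscle, rose from 1.57, 1.97 and 1.37 to 4.303, 4.22 and 3.63 CPM in SKNO-1. It went from 39.5 to 40.9 CPM untreated to 32.8 to 38.9 CPM treated in Molm-14 and from 19.9 to 20.4 to 16.5 to 19.9 CPM in MV4-11, above every SKNO-1 library. The differences were 1.47 ± 0.175 (limma adjusted p = 7.51e-05) and 1.48 ± 0.175 (adjusted p = 0.000343), and both calls held in every alternative fit but the one requiring a mean of 5 CPM in each line, which did not test it. CNTN4, a neuronal adhesion protein, rose from 3.23, 3.21 and 3.25 to 8.56, 6.68 and 8.23 CPM in SKNO-1, with responses of -0.04 in Molm-14 and 0.14 in MV4-11. Its difference from MV4-11, 1.12 ± 0.234 (adjusted p = 0.0178), was lost with voom weights and, at an adjusted p of 0.0503 to 0.0586, when any 1 of untreated SKNO-1 replicate 2 and treated SKNO-1 replicates 1 and 3 was left out. STING1, the adaptor of cytosolic DNA sensing, was chosen after its values were seen. It rose from 163.97, 172.7 and 172.9 to 242.9, 278.6 and 273.3 CPM in SKNO-1, and was called against both lines in 7 of 18 fits without 1 library.

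Another 11 members rose in SKNO-1 and, by less, elsewhere. Their median responses were 1.49, 0.72 and 0.501 in SKNO-1, Molm-14 and MV4-11. CD36, the scavenger receptor and fatty acid transporter of monocytes, went from 21.1, 21.9 and 21.6 to 105.3, 93.99 and 98.5 CPM in SKNO-1, from 31.2, 34.02 and 33.7 to 98.2, 69.1 and 91.1 CPM in Molm-14, and from 21.6, 33.4 and 25.7 to 48.6, 62.3 and 56.3 CPM in MV4-11. All treated libraries were above the untreated libraries of their line. The differences were 0.83 ± 0.208 (limma adjusted p = 0.0166) and 1.14 ± 0.208 (adjusted p = 0.00717). CD36 was the only member among 13 tested genes of myeloid maturation, whose medians were 0.21 and 0.03. More positive members were 0.343% of all genes tested. Of the 13, 3 were called more positive and 2 more negative against Molm-14. Against MV4-11, 1 was more positive and none more negative. Over all genes tested these shares were 4.22% and 6.88% against Molm-14, and 0.546% and 1.33% against MV4-11. NFE2, a transcription factor of erythroid and megakaryocytic cells named after its values were seen, had responses of 1.27, 0.72 and 0.703. No erythroid marker passed the filter, and the megakaryocyte markers summed to 23.2 to 23.8 CPM in untreated and 25.5 to 32.1 CPM in treated SKNO-1, and their part in the NFE2 result was not tested. PPM1M, a protein phosphatase, rose from 17.1, 17.7 and 19.2 to 42.5, 46.6 and 44.5 CPM in SKNO-1, with responses of 0.305 in Molm-14 and 0.28 in MV4-11. BEND6, a corepressor with a BEN domain, had responses of 1.58, 0.57 and 0.44, and FCRLA, an Fc receptor-like protein of B cells, 1.71, 0.34 and 0.501. The FCRLA difference from MV4-11 of 1.21 ± 0.227 (adjusted p = 0.00813) was 0.53 and not called on log2(CPM + 1). NHSL2 went from 2.12, 1.65 and 2.26 to 9.72, 11.04 and 11.8 CPM in SKNO-1, with responses of 2.43, 0.85 and 1.43. Its difference from MV4-11, 0.99 ± 0.221 (adjusted p = 0.0273), was lost on log2(CPM + 1), under the replicate block, with voom weights, and when any 1 of untreated MV4-11 replicate 1, treated MV4-11 replicates 1 and 3, untreated SKNO-1 replicate 2 and treated SKNO-1 replicates 2 and 3 was left out.

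In 9 more positive members the genes fell in both other lines with no call in SKNO-1. GDF15, a stress-induced cytokine and the only member among 23 tested p53 targets, fell from 42.7, 42.6 and 42.004 to 11.5, 11.9 and 10.1 CPM in Molm-14 and from 20.2, 19.1 and 22.3 to 9.19, 7.999 and 8.17 CPM in MV4-11. In SKNO-1 it measured 0.8304 to 1.37 CPM untreated and 1.16 to 1.52 CPM treated. The SKNO-1 groups overlapped, and every SKNO-1 library was below every library of the other lines. The differences were 2.27 ± 0.218 (limma adjusted p = 1.02e-05) and 1.61 ± 0.218 (adjusted p = 0.000818). Of the 23 p53 targets, 2 were called more positive and 8 more negative against Molm-14, with a median of -0.21. Against MV4-11, 1 was more positive and none more negative, with a median of -0.12. Of all genes tested, 4.22% were more positive and 6.88% more negative against Molm-14, and 0.546% and 1.33% against MV4-11. More positive members were 0.343% of all genes tested. GDF15 thus does not stand for the list. SLCO4C1, an organic anion transporter, went from the range of 24.5 to 28.003 to that of 10.7 to 14.8 CPM in Molm-14 and from the range of 8.32 to 11.1 to that of 3.697 to 4.05 CPM in MV4-11, and was between 0.872 and 1.47 CPM in every SKNO-1 library. RNASE2CP, a pseudogene of the eosinophil ribonuclease family, had responses of 0.43, -0.88 and -1.04, and its reads may belong in part to its relatives. Its calls were lost after quantile normalization and with voom weights, and that against MV4-11 also without untreated MV4-11 replicate 1 or treated MV4-11 replicate 3 (adjusted p of 0.0509 to 0.0534). ATAD3A and ATAD3B, both more negative members, are near-identical copies, and their reads are uncertain in the same way. The plot of levels in each library shows 12 of the members described.

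**Figure D3:**
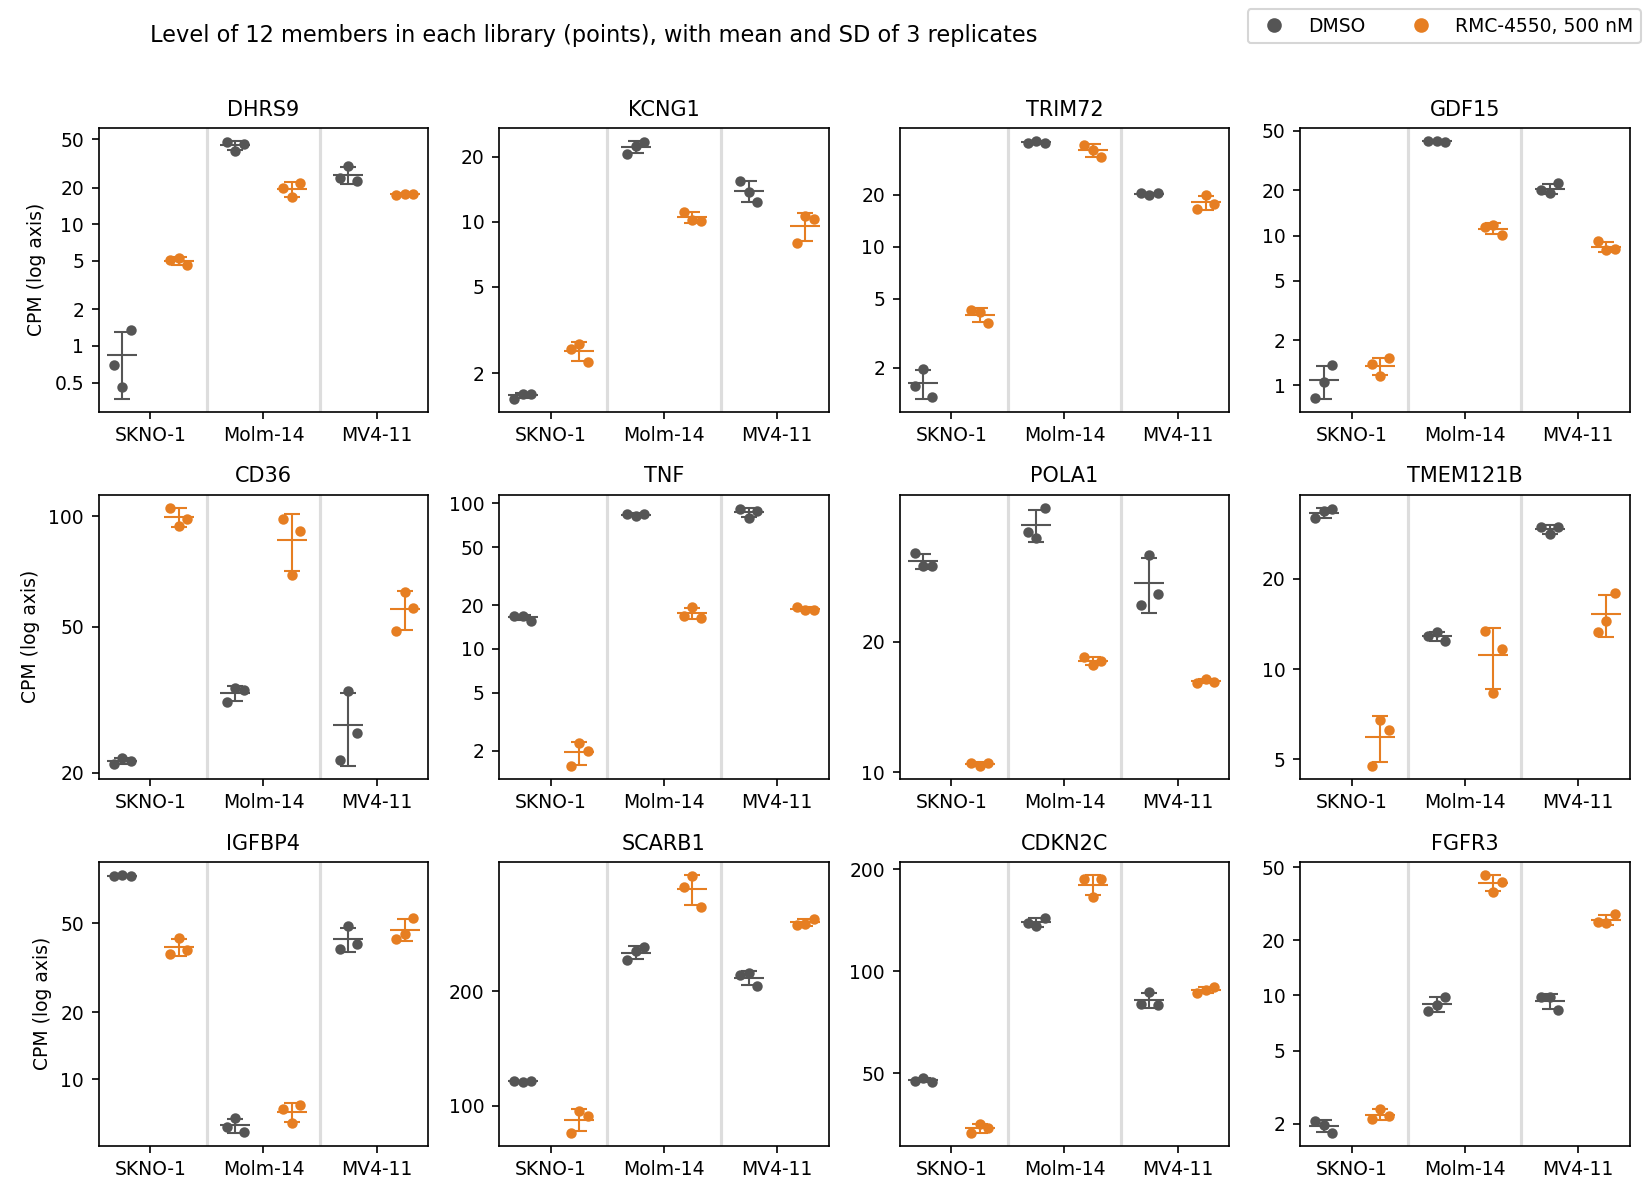
Level of 12 members in each library (points, CPM on a log axis that does not start at 0), by line, with DMSO in grey and 500 nM RMC-4550 in orange; bars give the mean and SD of 3 replicates. DHRS9, KCNG1, TRIM72 and GDF15 lay lower in SKNO-1 than in any library of the other lines, whereas CD36, TNF and POLA1 moved in 1 direction in all 3 lines.

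Before treatment, SKNO-1 had the lowest mean level of the 3 lines for 39 of the 44 more positive members (88.6%) and for 43 of the 68 more negative members (63.2%), against 37.7% of all genes tested. The median level in untreated SKNO-1 was 12.3 CPM for the more positive members, 19.98 CPM for the more negative and 27.1 CPM for all genes tested. On the log2 scale the level of the more positive members in untreated SKNO-1 minus that in untreated Molm-14 had a median of -1.59, and minus that in MV4-11 of -1.29. For the more negative members these were -0.56 and -0.34. The untreated level of MV4-11 lay between those of SKNO-1 and Molm-14 for 36 of the 44 (81.8%) and 52 of the 68 (76.5%), against 49.3% of all genes tested. The DMSO libraries enter both the level and the response, so these shares are a description and no test was made. In 8 of the 112 members, 4 in each direction, the 3 libraries of at least 1 group were all under 1 CPM on the deposited scale: SLC8A1, PAX5, FCRLA, CACNA1E, OCSTAMP, FAM222A, CCND1 and STON2. This held for 267 of the 12811 genes tested, a smaller share.

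Outside the members, the lists placed SKNO-1 on different sides of the other lines, as the plot of list medians shows. Against Molm-14, 11 of 31 genes of cholesterol and fatty acid synthesis were more positive and none more negative, with a median of 0.55. Against MV4-11, 1 of them was more negative and the median was -0.14. Their median response was -0.72 in SKNO-1, -1.37 in Molm-14 and -0.54 in MV4-11, and none was a member. The 28 genes of the integrated stress response and amino acid metabolism had 11 more positive and 1 more negative against Molm-14 (median 0.61) and 1 more negative against MV4-11 (median 0.097). For ribosome biogenesis 3 of 31 were more positive against Molm-14 and 6 more negative against MV4-11. Beside these list counts, 4.22% of all genes tested were more positive and 6.88% more negative against Molm-14. Against MV4-11 these shares were 0.546% and 1.33%. Of 10 listed genes of MAPK output, which report ERK activity, 7 were tested. Their median response was -1.52 in SKNO-1, -1.596 in Molm-14 and -0.93 in MV4-11, and CCND1 was the only member. A separate list of ERK feedback and immediate early genes, with 22 tested, had no member. Its median responses were 0.06, -0.02 and -0.11 in the same order, so the fall was not shared by that list. ETV4, an ETS factor induced by ERK, was called against MV4-11 at -1.65 (limma adjusted p = 0.0267) and not against Molm-14, at 0.19 (adjusted p = 0.788). DUSP6, the phosphatase that restrains ERK, was called against neither, at -0.68 (adjusted p = 0.0902) and -0.37 (adjusted p = 0.543).

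**Figure D4:**
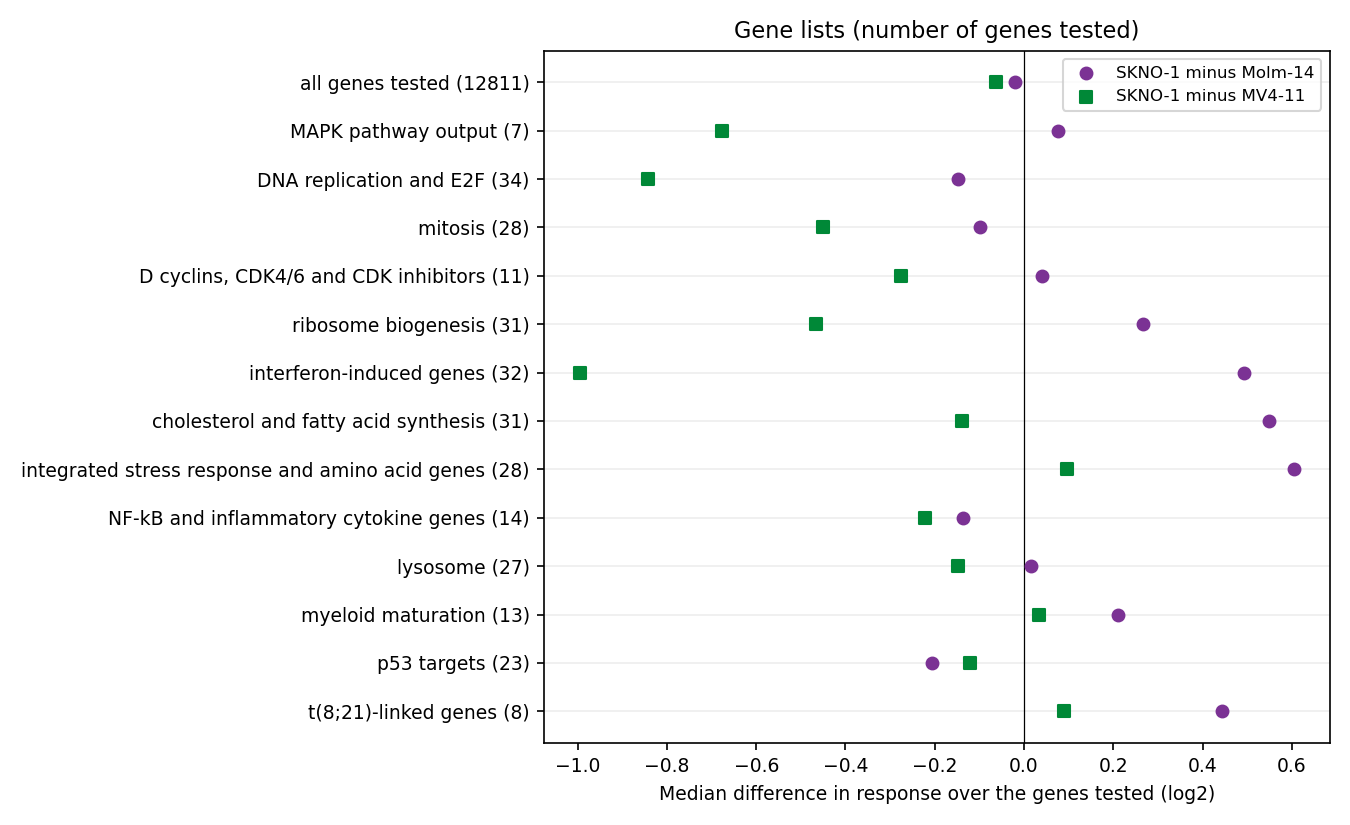
Median difference in response (log2) over the tested genes of 13 gene lists and of all genes tested, for SKNO-1 minus Molm-14 (purple circles) and SKNO-1 minus MV4-11 (green squares); the number of genes tested is in brackets. The interferon-induced genes lie at 0.49 and -0.99, and all genes tested at -0.02 and -0.06.

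The drug target and the receptors were not members. PTPN11 went from 139.2, 125.2 and 125.9 to 87.6, 82.5 and 80.2 CPM in SKNO-1, from 245.8, 229.8 and 250.6 to 154.2, 84.9 and 135.2 CPM in Molm-14, and from 106.1, 187.2 and 109.995 to 86.5, 128.3 and 106.3 CPM in MV4-11. The lowest treated Molm-14 library and the lowest libraries of each MV4-11 group were those with over 10% mitochondrial reads. The differences were 0.36 ± 0.306 (limma adjusted p = 0.497) and -0.34 ± 0.306 (adjusted p = 0.641), and the latter was 0.0401 without those libraries. Leaving out 1 library moved the first between 0.104 and 0.53 and the second between -0.61 and -0.199, with neither called. FLT3 rose in SKNO-1 from 337.4, 325.9 and 320.6 to 486.4, 452.3 and 458.5 CPM. Its responses were 0.51, -0.17 and 0.48 in SKNO-1, Molm-14 and MV4-11, a difference of 0.68 ± 0.1697 from Molm-14 (adjusted p = 0.0169) and of 0.02 ± 0.1697 from MV4-11 (adjusted p = 0.954). KIT averaged 32.3 ± 1.03 CPM untreated and 39.6 ± 1.78 CPM treated in SKNO-1 (SD, n = 3), 0.205 ± 0.114 and 1.098 ± 0.293 CPM in Molm-14 and 4.97 ± 0.758 and 6.49 ± 0.351 CPM in MV4-11. It failed the filter in Molm-14, with 2 to 6 reads per untreated library, and was not tested.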

How the data were processed

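RNA-seq was analysed in 18 cultures. The authors deposited log2 values per Ensembl gene; FastQC, STAR, limma and GRCh38 are named, without versions, per the submitters' processing notes, and the counter, annotation and strandedness are not given in the sources used here. Tested on its steps, each log2 value equals reads plus 0.5, as CPM of a library scaled by 0.8903 to 1.11, and undoing this gave whole reads (within 0.1) for 100% of values of up to 100 reads. CPM levels are those reads over the scaled library. Symbols matched 40069 of 40184 IDs.

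A limma 3.58.1 model (R 4.3.3, lmFit, eBayes with an intensity trend) with 1 coefficient per group was fitted to the log2 table over the 18 samples, and two-sided p-values were adjusted over the 12811 genes kept. The 1 CPM minimum was read on the deposited values, after a reading on reads without the added 0.5 had been seen. The fit was tested on simulated data. By the correlation of deviations from the group means, same-numbered DMSO and RMC-4550 libraries deviated together in SKNO-1 (0.102 to 0.287, 3 of 3 pairs over 0.1) but not in Molm-14 (-0.103 to 0.0606) or in all pairs of MV4-11 (-0.56 to 0.764), and the labels give no source of a pairing. The labels call the replicates biological and give no more of their source, so p-values measure the spread between these cultures. Members, gene lists and the rule for named genes were set with earlier results of these data known. The rule took PTPN11, FLT3 and KIT, the 12 members per direction with the largest smaller difference at a mean of at least 5 CPM, up to 2 members of each of 36 lists, and members called in opposite directions in both other lines. Other genes were chosen after their values were seen. Some genes are not reported here. Floors cover counting error only, since amplified reads without molecular identifiers are not independent molecules. Alternatives covered the added value, filter, scaling, trend, weights, samples in the fit, the replicate block, the mitochondrial share and each library left out. Figures used matplotlib 3.10.9 in Python 3.11.15.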

Additional observations from a re-analysis of the deposited data

Results flagged for a closer look

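The counts of 44 and 68 genes are differences between lines by a test of the difference itself. By construction every member meets the same criterion, so single genes are given here only where SKNO-1 and another line were called in opposite directions. The value is the smaller of the 2 differences between the SKNO-1 response and the others, on the log2 scale. It was 3.199 for DHRS9, 1.204 for KCNG1 and 1.61 for PAX5. It was 2.22 for SLC8A1, the sodium-calcium exchanger, 0.99 for the transcription factor TCF4, 0.72 for ACSL5, which activates fatty acids, and 0.68 for CYP2R1, which hydroxylates vitamin D. TEX30, MCOLN2 (a cation channel) and TMEM154 were at 0.62, 0.59 and 0.47. Among genes that fell in SKNO-1 it was -0.82 for SCARB1 and -0.57 for CDKN2C. It was -2.45 for FAM222A, -0.903 for SAMSN1, -0.87 for PITPNM2, -0.58 for SLC2A5 and -0.47 for LPCAT1, which remodels phosphatidylcholine.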

How the results depend on the processing

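Under each alternative 4 counts were made again: genes called against Molm-14 (1422), against MV4-11 (241), more positive than both (44) and more negative than both (68), and the genes called within SKNO-1, Molm-14 and MV4-11 (3810, 6235 and 2018). Adjusted for the mitochondrial share they were 3789, 1396, 276 and 371, with 7031 in SKNO-1 and 5017 in MV4-11. Without the libraries over 10% mitochondrial reads they were 4055, 918, 213 and 267, with 7540 and 4130. At an adjusted p under 0.01 they were 652, 132, 19 and 30, with 2389 and 1031. With a difference of more than 1 on the log2 scale they were 497, 104, 14 and 16, with 667, 1627 and 270 within the lines. Leaving out 1 library gave 952 to 1916, 163 to 913, 30 to 68 and 40 to 130, and within the lines 2850 to 4628, 5207 to 6965 and 1223 to 3061. The extremes within MV4-11 came without its treated replicate 3 and its untreated replicate 2, the latter giving 913 genes against MV4-11, and without treated Molm-14 replicate 2 that count was 504. The cause was not tested, except that stricter thresholds call fewer genes by construction. The replicate number as a block gave 1118, 189, 34 and 50. Over all groups same-numbered samples did not deviate together, with correlations from -0.826 to 0.764 over 45 pairs, 12 of them over 0.1, so the numbers were not taken as pairs across the lines. The 3 same-numbered pairs within SKNO-1 did correlate over 0.1, and a replicate block within SKNO-1 alone, chosen after seeing the data, gave 1150, 201, 34 and 55, with 34 of the 44 and 53 of the 68 kept. Among the genes reported here that the rule for named genes chose, it ended a call for MCM5, SLC7A5 and GPNMB only. Reading the 1 CPM minimum on reads without the added 0.5, an alternative chosen after seeing the data, gave 1418, 243, 44 and 68. Of 2210 alternative values for named genes, 2089 kept direction and call, 116 lost the call and 5 reversed. The reversals were CCND1 against Molm-14 on log2(CPM + 1) (0.74), PTPN11 against MV4-11 without the libraries over 10% mitochondrial reads (0.0401), and FLT3 against MV4-11 without untreated MV4-11 replicate 2 (-0.13), treated MV4-11 replicate 1 (-0.06) or treated SKNO-1 replicate 1 (-0.01), with values of up to 0.13 over the fits without 1 library and up to 0.25 over all alternatives. Depth limited CCND1 and OCSTAMP, whose treated SKNO-1 libraries held 3 reads or fewer.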

Other observations

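The 12 genes whose SKNO-1 response lay between those of the other lines, and differed from both, were chosen after their values were seen. Of these, 5 were on the list of interferon-induced genes (CMPK2, IFIT1, MX2, PARP9, SAMD9L). EIF2AK2, the double-stranded RNA-dependent kinase, was not on it and had responses of 1.07, 0.07 and 2.12 on the log2 scale in SKNO-1, Molm-14 and MV4-11. CYP1B1, a cytochrome P450 enzyme, had 0.49, 1.82 and -1.05. JAML, an adhesion molecule of leukocytes, had 1.302, 1.94 and 0.596, and LPXN, a focal adhesion adaptor, had 0.27, 1.15 and -0.297. The homeobox gene DLX1 had -1.15, -0.71 and -1.78. FARSB, a subunit of phenylalanyl-tRNA synthetase, had -0.82, -1.27 and -0.23, and PUS7, a pseudouridine synthase, had -0.68, -1.21 and 0.002.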
